A study of Mus musculus with 7 samples.

Results

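The ovulation and cumulus expansion genes examined here were the 9 genes Ptgs2, Areg, Ereg, Btc, Egfr, Tnfaip6, Has2, Ptx3 and Cebpb, out of 21755 protein-coding genes annotated on the mouse autosomes and chromosome X. They were chosen by name, and the locus of each was its gene body with 50 kb on each side. The loci of Areg and Ereg overlap on chromosome 5, so the 9 genes occupied 8 separate stretches of 1149 kb in all. The signal of estrogen receptor beta (ERβ, encoded by Esr2) was followed across these loci by chromatin immunoprecipitation and sequencing (ChIP-seq), in which DNA fragments held by an antibody are compared with sheared chromatin sequenced without that step (input).

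The samples were 3 ERβ ChIP libraries and 2 inputs from whole ovaries of female C57BL/6J mice that endogenously express ERβ, with no treatment given in the labels. The antibody was PPZ0506, a mouse monoclonal. According to the study's methods, each ChIP replicate pooled the ovaries of several mice, which ranged in age from a few weeks to a few months and were not taken at a set stage of the cycle. The samples therefore hold no timed ovulatory stage, and 2 ERβ ChIP samples of knockout ovaries were not analysed here. Normalised signal averaged 0.362 to 0.3697 per base of the genome in each library. The study reports the reads aligned per ChIP sample, but the number of reads behind each value cannot be read from the tracks. Names of the tracks put ChIP replicate 1 with Input replicate 1, and ChIP replicates 2 and 3 with Input replicate 2. These are called track-name batches below. ChIP signal holds no expression levels, so the tissue label could not be checked against marker genes, and strong binding in a few cells cannot be told apart from weak binding in many.

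At ovulation, luteinising hormone acts on the outer granulosa cells of the follicle, which release the epidermal growth factor (EGF)-like ligands amphiregulin, epiregulin and betacellulin. These ligands bind the EGF receptor on granulosa and cumulus cells, and the signal turns on genes for prostaglandin synthesis and for a hyaluronan-rich matrix that loosens the cumulus around the oocyte. ERβ is a nuclear receptor of granulosa cells. It binds the estrogen response element (ERE), an inverted repeat read here as GGTCA, 3 arbitrary bases and TGACC, and mice without it ovulate poorly.

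ERβ sites were found at the EGF receptor gene and at Cebpb, whereas the ligand, prostaglandin and matrix genes held none. A site was a 200-bp window in which the signal of at least 2 ChIP libraries was over 4 times the mean of both inputs in the same window, the input being set to at least its genome mean of 0.368. Overlapping windows were joined, and the window with the highest mean fold stood for the site. By this rule the 8 stretches held 5 sites, 3 at Egfr and 2 at Cebpb. Without ChIP replicate 2 or without ChIP replicate 3, when both remaining ChIP libraries had to pass, 3 sites were left, and both genes still held one. Among non-overlapping 200-bp tiles, 6 of 5734 in these stretches passed, or 0.105%, beside 0.0444% of the 12796535 tiles tested genome-wide. Of the 9 genes, 2 had a site in their locus and 7 had none, whereas 27.5% of all protein-coding loci (5979 of 21755) held at least 1 site. A count of 2 in 9 is near that background. Egfr has a long locus of 266 kb, and 94.2% of protein-coding loci were shorter, while the Cebpb locus of 102 kb was longer than 5.35% of them.

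The sequences of the 5 sites are given first, because each window holds a close match to the ERE, as do most sites of the genome. Each is the plus strand of GRCm38 (mm10), 5′ to 3′, with the closest match to the ERE in capitals.
Egfr site 1 (chr11:16769901-16770100): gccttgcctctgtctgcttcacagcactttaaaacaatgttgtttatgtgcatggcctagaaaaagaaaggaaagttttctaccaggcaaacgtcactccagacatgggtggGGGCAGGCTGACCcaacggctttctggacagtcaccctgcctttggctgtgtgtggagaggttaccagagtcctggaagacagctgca
Egfr site 2 (chr11:16795191-16795390): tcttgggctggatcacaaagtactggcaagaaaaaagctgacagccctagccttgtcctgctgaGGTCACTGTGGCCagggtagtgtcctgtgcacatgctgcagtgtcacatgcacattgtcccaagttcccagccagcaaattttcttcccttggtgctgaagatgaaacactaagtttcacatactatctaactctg
Egfr site 3 (chr11:16814381-16814580): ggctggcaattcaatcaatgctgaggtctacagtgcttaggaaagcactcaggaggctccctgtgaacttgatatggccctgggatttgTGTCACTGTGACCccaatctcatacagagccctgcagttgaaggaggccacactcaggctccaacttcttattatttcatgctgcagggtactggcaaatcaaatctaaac
Cebpb site 1 (chr2:167713481-167713680): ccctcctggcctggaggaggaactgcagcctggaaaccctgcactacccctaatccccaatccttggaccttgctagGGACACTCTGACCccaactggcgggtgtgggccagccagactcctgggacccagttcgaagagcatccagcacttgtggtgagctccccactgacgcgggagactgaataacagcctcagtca
Cebpb site 2 (chr2:167729291-167729490): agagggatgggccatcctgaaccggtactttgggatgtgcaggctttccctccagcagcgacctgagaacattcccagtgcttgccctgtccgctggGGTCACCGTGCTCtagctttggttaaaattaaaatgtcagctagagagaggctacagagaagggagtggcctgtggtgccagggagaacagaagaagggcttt

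Counting only the 10 fixed bases, all 5 windows held an ERE match with 2 mismatches or fewer, and 4 of them a match with 1 mismatch. The middle of the match lay 3.5 to 29.5 bp from the middle of the window. Among all 4870 sites of the genome 67.9% held a match with at most 2 mismatches and 33.0% one with at most 1, against 6.68% and 0.529% of all tiles. Read on the plus strand and counted from 1 at the 5′ end of the 13 bases, with the base of the repeat first, the differences were T3G at Egfr site 1, A11G at site 2 and G1T at site 3. At Cebpb site 1 the difference was T3A, and at site 2 they were A11C and C12T. None of the 5 windows held the other motifs searched on both strands without mismatch, which were NR5A (the word TCAAGGTCA or the word CCAAGGTCA), GATA (the word AGATAA or the word TGATAA), AP-1 (the word TGACTCA or the word TGAGTCA), FOXO (TGTTTAC), CRE (TGACGTCA) and C/EBP (TTGCNNAA). Nor did any hold the progesterone response element (AGAACA, 3 arbitrary bases and TGTTCT, at most 2 mismatches). GATA was the most frequent of these, in 29.7% of all sites and 24.1% of all tiles, and NR5A, whose word contains an ERE half-site, was in 7.15% and 0.693%. Bases marked as repeats in the assembly made up 0 to 24% of each of the 5 windows, compared with a mean of 13.1% in all sites and 34.3% of all tiles.

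Egfr encodes the receptor of all 3 ligands in the group (ENSMUSG00000020122.16, chr11:16752203-16918158, plus strand). Its 3 sites all lay in intron 1 of 27, at 17.8, 43.1 and 62.3 kb after the gene's start, and Egfr was the protein-coding gene with the nearest start. At site 1 the folds over input were 3.15, 5.47 and 6.56 in ChIP replicates 1, 2 and 3, a mean of 5.06 ± 1.74 (SD, n = 3). Replicate 1 was the lowest and stayed under 4-fold there. The signal itself was 2.12, 3.68 and 4.41 in the ChIP libraries against 0.604 and 0.741 in Input replicates 1 and 2.

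Egfr site 2 was the most even among replicates, with folds of 4.34, 4.51 and 4.64 (mean 4.50 ± 0.15, n = 3). Its signal was 1.94, 2.01 and 2.07 in ChIP and 0.593 and 0.300 in the inputs, so the inputs differed more than the ChIP libraries. Against Input replicate 1 alone the mean fold was 3.39, and against Input replicate 2 alone 5.48. Site 3 was the highest of the 5, with folds of 6.502, 5.33 and 6.70 (mean 6.18 ± 0.74, n = 3). Its signal of 3.89, 3.19 and 4.01 in ChIP stood beside 0.718 and 0.478 in the inputs. That ChIP values lie above the inputs at sites follows largely from the rule that chose them. The start of Egfros, an antisense gene, was closer to sites 2 and 3 than that of Egfr, at 35.4 and 16.2 kb.

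Cebpb encodes C/EBPβ, a transcription factor that granulosa cells induce after the luteinising hormone surge and that ovulation needs (ENSMUSG00000056501.3, chr2:167688915-167690418, plus strand, 1.504 kb long). Both sites lay beyond the gene. Site 1 was 24.7 kb after its start, in intron 1 of 3 of the long non-coding RNA gene A530013C23Rik. Site 2 was 40.5 kb after the start, between genes. Cebpb was the nearest protein-coding start to both. At site 1 the folds were 2.68, 5.05 and 6.52 (mean 4.75 ± 1.94, n = 3), with replicate 1 under 4-fold, as at Egfr site 1. The signal was 1.34, 2.53 and 3.27 in ChIP and 0.627 and 0.376 in the inputs. At site 2 all 3 replicates were close, at 5.95, 6.53 and 5.45 (mean 5.98 ± 0.54, n = 3). There the signal was 4.31, 4.73 and 3.95 in ChIP against inputs of 0.731 and 0.718.

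**Figure D1:**
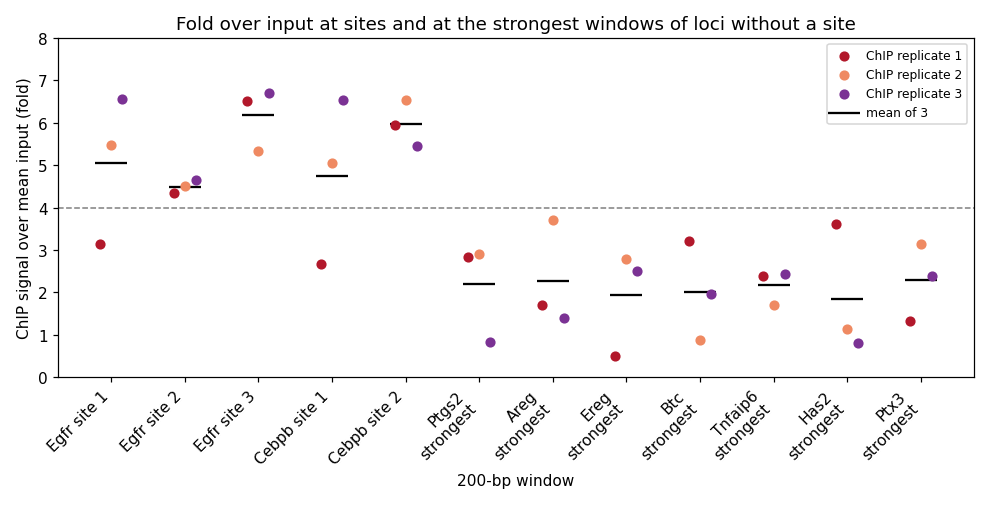
Each point is the signal of 1 ChIP library over the mean of the 2 inputs (fold, linear axis) in a 200-bp window, for the 5 sites and for the strongest window of each locus without a site. The bar is the mean of the 3 libraries and the dashed line the 4-fold threshold. At the sites the means lie between 4.50 and 6.18, and at the other strongest windows between 1.86 and 2.29.

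The sites were modest in height. All 5 were below the median fold of the genome's sites, 6.22, and 50.7% to 80.3% of those 4870 sites were stronger. At Cebpb, 2 more windows came close to the rule without meeting it. One lay at 28.9 kb after the start (chr2:167717701-167717900), with folds of 4.86, 3.77 and 3.86 (mean 4.16 ± 0.61, n = 3) and an ERE match with 2 mismatches. The other lay at 1.03 kb before the start (chr2:167687781-167687980), with folds of 2.00, 3.48 and 4.47 (mean 3.32 ± 1.24, n = 3) and no match closer than 3 mismatches. Just inside the rule, the second-highest fold was 4.51 at Egfr site 2. Of the 5 sites, 3 were over 4-fold in all 3 libraries. Of the sites that passed in replicates 2 and 3, replicate 1 was over 4-fold at 3 of 5 here and at 75.6% of 4242 in the genome. Within track-name batches, where replicate 1 is set against Input replicate 1 only, its folds were 3.51, 3.27 and 5.42 at the Egfr sites and 2.14 and 5.89 at the Cebpb sites. Replicates 2 and 3 against Input replicate 2 were between 4.96 and 8.71 at all 5. How far the batch takes part in the lower values of replicate 1 was not tested.

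**Figure D2:**
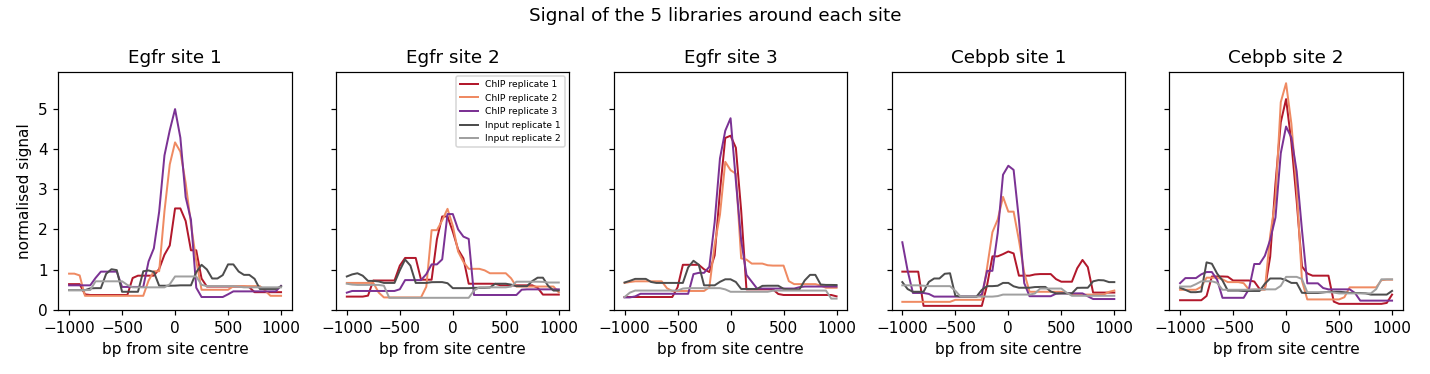
Normalised signal (linear axis) of the 3 ChIP and 2 input libraries in 50-bp steps from 1 kb before to 1 kb after the middle of each site. The ChIP lines are highest near the middle of each site, with unequal heights at Egfr site 1 and Cebpb site 1, where ChIP replicate 1 reaches 1.45 in the middle and 1.24 farther out. The inputs stay at 1.25 or below, and Input replicate 2 has its highest values near the middle of Egfr site 1 (0.83) and Cebpb site 2 (0.82).

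The comparison was repeated without the site rule, over 1-kb windows of the whole genome, with limma on log2(signal + 0.5), a scale that understates differences where signal is low. At an adjusted p under 0.05 (Benjamini-Hochberg over all windows, two-sided), 0.0957% of 2430643 windows were higher in ChIP than in input. Of 1111 windows in the loci, 2 were higher and 0 lower, and at an unadjusted p under 0.05 the limma counts were 16 higher and 50 lower, beside 46255 higher and 80925 lower over all windows, so an excess of lower windows was present genome-wide. The median log2 difference was -0.03 over these windows and -0.01 over all. One of the 2 windows held Egfr site 3 (chr11:16814001-16815000). Its signal was 1.49, 1.38 and 1.47 in ChIP and 0.692 and 0.493 in input, a log2 difference of 0.84 (SE 0.18, limma adjusted p = 0.0382). The other held Cebpb site 2 (chr2:167729001-167730000). Its signal was 1.498, 1.42 and 1.57 in ChIP and 0.541 and 0.539 in input, a log2 difference of 0.94 (SE 0.18, limma adjusted p = 0.00722). All 3 ChIP values exceeded both inputs in each window. These windows and the sites come from the same libraries and are not independent of each other. Leaving out a library lowered the count from 2 to 0 (without ChIP replicate 2, Input replicate 1 or Input replicate 2) or to 1 (without ChIP replicate 1).

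Areg and Ereg encode amphiregulin and epiregulin, the ligands that granulosa cells release first after the surge, and Btc encodes betacellulin. No window near them came close to the rule. The strongest window in the Areg locus, at 26.4 kb after its start, had folds of 1.71, 3.71 and 1.39 (mean 2.27 ± 1.25, n = 3). That of Ereg, at 35.6 kb after its start and nearer to the start of Areg, had 0.510, 2.79 and 2.51 (mean 1.94 ± 1.24, n = 3). That of Btc, in its own intron 1, had 3.22, 0.869 and 1.96 (mean 2.02 ± 1.18, n = 3). The 3 libraries differed by more than 2-fold at each of these windows, and a different library was the highest at Btc than at Areg and Ereg. The nearest site of the genome was 261 kb from the start of Areg, 197 kb from that of Ereg and 286 kb from that of Btc, and the distances of Areg and Ereg end at the same site.

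Ptgs2 encodes cyclooxygenase-2, the inducible enzyme of prostaglandin synthesis (ENSMUSG00000032487.8, chr1:150100031-150108227, plus strand). It was the member farthest from any site, at 1216 kb, and 92.8% of protein-coding genes had one closer to their start (median over all genes 172 kb). The strongest window of its locus, 43.6 kb before the start, had folds of 2.82, 2.91 and 0.842 (mean 2.19 ± 1.17, n = 3). Replicate 3 was below the input there. The mean signal over its whole locus of 108 kb was 0.410, 0.444 and 0.395 in ChIP and 0.421 and 0.404 in input, so the libraries overlapped. Means over whole loci did not follow the sites. The ratio of mean ChIP to mean input was 1.01 at Ptgs2, 0.927 at Egfr and 0.837 at Cebpb.

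The matrix genes were alike in this. Has2 encodes the hyaluronan synthase of the cumulus, Tnfaip6 (TSG-6) transfers heavy chains onto hyaluronan, and Ptx3 encodes pentraxin 3, which cross-links the matrix. Their strongest windows had mean folds of 1.86 ± 1.53, 2.17 ± 0.41 and 2.29 ± 0.91 (n = 3 each). For Has2 the folds were 3.61, 1.15 and 0.804, so replicate 1 alone set the value. For Tnfaip6 they were 2.39, 1.70 and 2.43, in intron 23 of 35 of the neighbouring gene Rif1, and for Ptx3 1.33, 3.15 and 2.39, in intron 4 of 13 of the neighbouring gene Veph1. The nearest sites were 478, 175 and 286 kb from the starts of Has2, Tnfaip6 and Ptx3.

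Across the 7 loci without a site, no window was over 4-fold even in a single ChIP library. The highest window of the 3 ChIP libraries over the mean input ran from 3.37-fold at Ptx3 to 3.76-fold at Btc. The highest window of either input over the other ran from 2.29-fold at Has2 to 3.31-fold at Tnfaip6. These ranges rest on unequal numbers of libraries and on different denominators, so they are values side by side and not a comparison. The tracks hold no read counts, and weaker ERβ signal under the 4-fold rule may have gone undetected. The median strongest window was 2.19-fold over the 9 genes and 2.35-fold over all protein-coding loci.

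**Figure D3:**
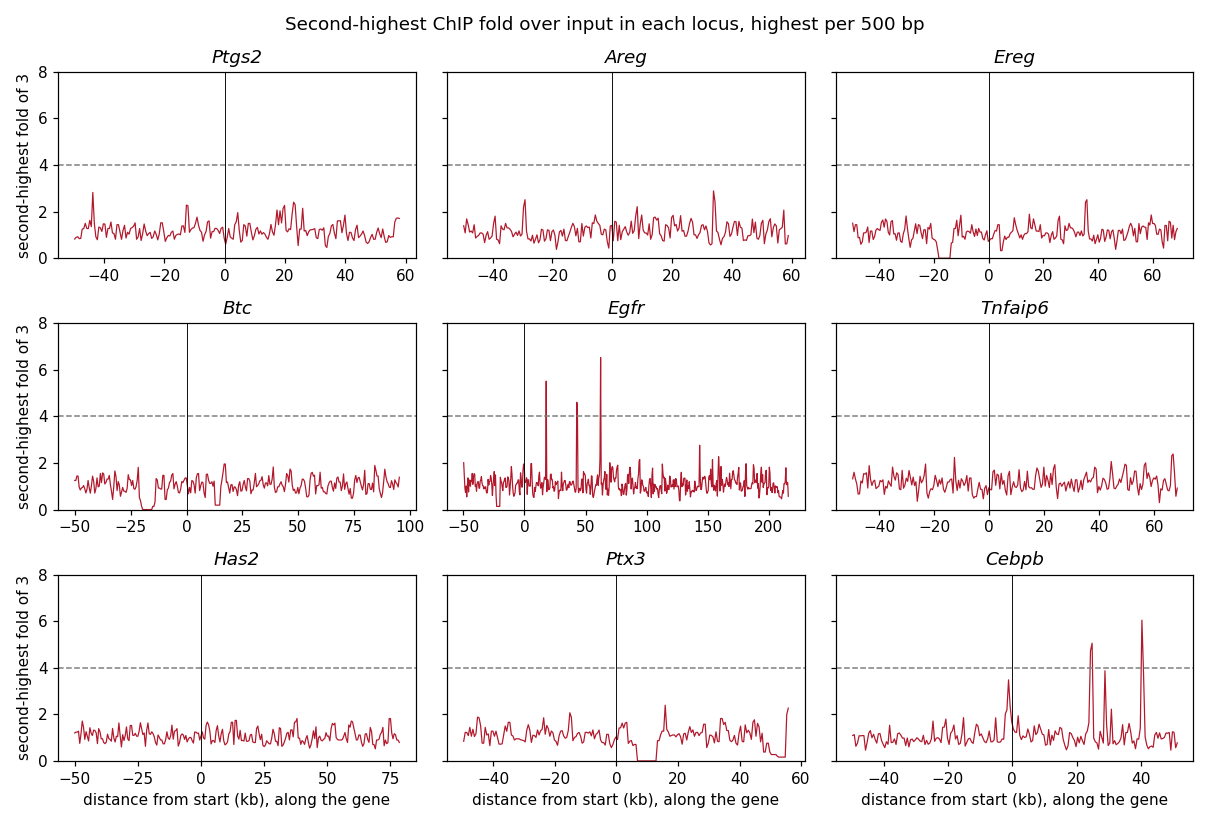
For each gene, the second-highest of the 3 ChIP folds over input (linear axis, highest value per 500 bp) against the distance from the gene's start along the direction of transcription, in kb, from 50 kb before the gene to 50 kb after it. A value over the dashed line at 4 means that at least 2 libraries passed the rule. Peaks cross the line 3 times at Egfr and at 2 places at Cebpb, and the other 7 panels stay under 3.

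Promoters were compared next, as the mean signal from 1 kb before to 100 bp after a transcript start. Of 21093 protein-coding genes with a tested promoter, 0.0664% were higher in ChIP (limma, adjusted p under 0.05). All 9 genes were tested. None was higher or lower (0 in each direction by limma, and 0 in each direction at an unadjusted p under 0.05). Promoters in general tended to be below input, with a median log2 difference of -0.17 over all genes and -0.12 over the 9.

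The Egfr promoter had the highest log2 difference of the group, 0.23 (SE 0.29), with a signal of 0.970, 1.12 and 1.38 in ChIP and 1.06 and 0.768 in input (limma adjusted p = 1). Replicate 1 lay between the inputs. At the Cebpb promoter the ChIP signal was 0.571, 0.926 and 1.21, spread on both sides of the inputs at 0.909 and 0.876 (log2 difference -0.01, SE 0.26). At Areg, the lowest of the group, the ChIP values of 0.259, 0.449 and 0.566 were all below the inputs of 0.639 and 0.605 (log2 difference -0.29, SE 0.16, limma adjusted p = 0.570). The promoter of Ptgs2 had 0.397, 0.457 and 0.709 in ChIP and 0.656 and 0.788 in input (log2 difference -0.27, SE 0.19, limma adjusted p = 0.813). The other 5 promoters had log2 differences from -0.25 at Tnfaip6 to 0.08 at Btc. With SEs of 0.14 to 0.29, differences of that size could not be resolved with 5 libraries.

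**Figure D4:**
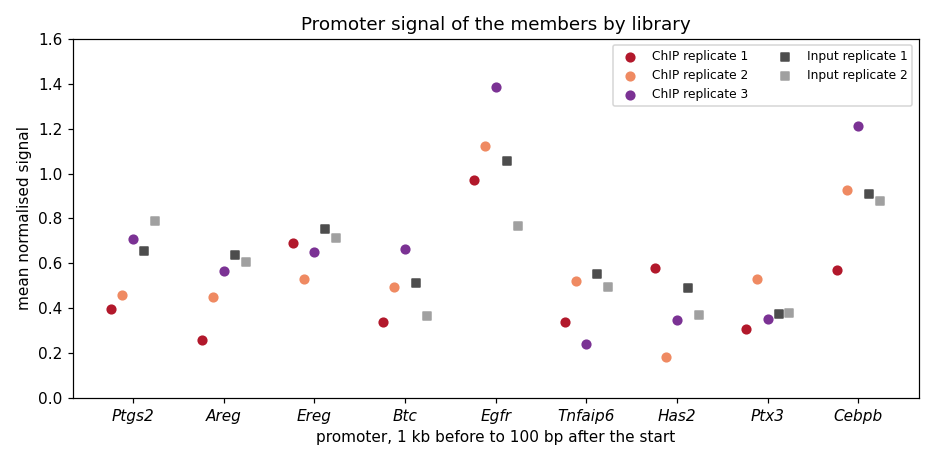
Mean normalised signal (linear axis from 0) in the promoter of each gene, from 1 kb before to 100 bp after the start, with circles for the 3 ChIP libraries and squares for the 2 inputs. ChIP and input values overlap at most genes, and at Areg and Ereg the ChIP circles all lie below the squares.

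Response element letters were present in the promoters of some of these genes. A match to the ERE with at most 1 mismatch stood in the promoters of Btc and Egfr, 2 of 9, compared with 3.17% of 21738 promoters. With at most 2 mismatches Areg joined them, 3 of 9 against 35.0%. A CRE, the letters read by CREB after cyclic AMP rises, stood in the Areg promoter, beside 3.11% of all promoters. C/EBP letters stood in 6 of 9 promoters (Ptgs2, Btc, Egfr, Tnfaip6, Has2 and Ptx3) against 36.9%. GATA letters stood in 6 of 9 against 59.0%, AP-1 in 2 against 16.0% and FOXO in 2 against 13.1%. NR5A was in 0 of 9 against 4.89%, and the progesterone response element in 0 against 8.53%. A match says only that the letters are there.

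Most ERE matches in these loci lay outside the sites. No perfect ERE lay in the 8 stretches, and 43 matches with 1 mismatch did. Of these, 4 were over 4-fold in at least 2 ChIP libraries, the ones at the 3 Egfr sites and at Cebpb site 1, beside 1.92% of the 70103 such matches in the genome. The other 39 had a median fold of 0.890, with 23 of them below 1, and the highest was 2.10. Egfr had 11 matches, Ptx3 9, Cebpb 7, Btc 5 and Ereg 5, and the others 1 or 2 each. Of the 9 matches at Ptx3 4 lay in repeats, compared with 1 of 11 at Egfr. The tracks hold uniquely mapped reads, and all 11 matches in repeats were among the 39 outside the sites, 2 of them at 0 in all 3 ChIP libraries. Signal at such matches may not have been measurable. For comparison with the site sequences, the match with the highest fold outside the sites is given for each gene, with 10 bases on each side, on the plus strand of GRCm38 and the 13 bases in capitals.
Areg ERE without a site: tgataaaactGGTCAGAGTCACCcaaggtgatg
Ereg ERE without a site: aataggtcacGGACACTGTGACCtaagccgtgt
Btc ERE without a site: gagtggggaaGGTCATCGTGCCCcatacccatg
Egfr ERE without a site: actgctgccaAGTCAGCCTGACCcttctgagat
Cebpb ERE without a site: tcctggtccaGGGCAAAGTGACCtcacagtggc
Ptgs2 ERE without a site: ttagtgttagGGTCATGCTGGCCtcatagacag
Has2 ERE without a site: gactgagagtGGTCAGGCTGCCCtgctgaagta
Tnfaip6 ERE without a site: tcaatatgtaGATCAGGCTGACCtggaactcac
Ptx3 ERE without a site: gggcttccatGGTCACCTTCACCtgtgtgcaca

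The match of Egfr in this list was in its promoter, 0.459 kb before the gene's start (chr11:16751738-16751750). Its folds of 1.84, 2.76 and 1.71 were all above 1, and its mean of 2.10 was below that of each intronic site. The match of Btc, 32.1 kb before its start, had folds of 1.19, 1.98 and 1.25. The remaining matches in the list had means from 1.12 at Areg to 1.40 at Tnfaip6, where the match was in a repeat. Some letters were shared with bound matches. The single difference T3G was found both at Egfr site 1, with a mean of 5.06-fold, and at the Cebpb match 38.3 kb before its start, with folds of 0.528, 1.53 and 1.98. The difference T3A was found at Cebpb site 1 and at the Ereg match 29.9 kb before its start, where the folds were 0.999, 0.719 and 1.71. A11G was found at Egfr site 2 and at the Ptgs2 match 5.42 kb before its start, with folds of 1.51, 1.73 and 0.359. A11C, found together with C12T at Cebpb site 2, was the only difference at the Btc and Has2 matches.

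**Figure D5:**
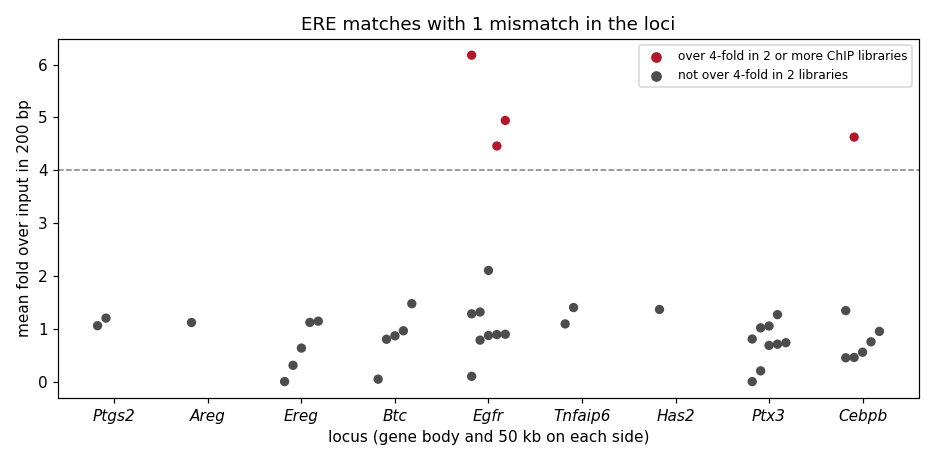
Each point is an ERE match with 1 mismatch in the locus of a gene, at its mean fold over input (3 ChIP libraries, 200 bp around the match, linear axis), red where at least 2 libraries were over 4-fold. The 4 red points are 3 at Egfr and 1 at Cebpb, and the 39 others lie at 2.10 or less.

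A second list of 29 genes that act with these at ovulation was read by the same rule. In all, 14 of 29 held a site in their locus, beside the 27.5% of all protein-coding loci. The list was chosen with earlier results of these data known, so these shares are a description and not a test. Some of its loci are long, such as Runx1 with 325 kb against a median of 117 kb over all genes. The site of Erbb2 lay in an intron of the neighbouring gene Ikzf3, and that of Pgr had a mean fold of 3.95. By role these were 3 of 7 genes of the EGF family, 2 of 6 of the prostaglandin path, 3 of 8 matrix genes and 6 of 8 upstream signals and transcription factors. The matrix genes Itih1 and Itih3 lie side by side and hold the same single site, so these 3 genes rest on 2 sites. Those described here, each with a site of at least 8-fold, were Tgfa, Creb1, Lhcgr, Ptges and Hpgd. Tgfa encodes transforming growth factor alpha, another ligand of the EGF receptor, and its site in intron 1, 18.2 kb after the start, had folds of 12.4, 22.2 and 27.2 (mean 20.6 ± 7.55, n = 3). Lhcgr, the receptor of luteinising hormone, held a site in its first exon, 0.140 kb after the start, at 8.38, 10.99 and 18.0-fold (mean 12.5 ± 4.98, n = 3). Its promoter signal was 1.504, 1.37 and 1.91 in ChIP over 0.591 and 0.529 in input, although the adjusted p by limma was 0.219. Creb1, whose product reads the CRE, had a site 12.6 kb before its start at 11.4, 17.5 and 13.1-fold (mean 13.99 ± 3.12, n = 3). The closest matches at Tgfa and Creb1, each with 1 mismatch, are shown because these sites were the highest of that list.
Tgfa site ERE: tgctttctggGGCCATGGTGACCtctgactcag
Creb1 site ERE: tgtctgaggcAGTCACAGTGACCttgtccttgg

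Among the 6 prostaglandin genes of the second list, Ptgs1, Ptger2, Ptger4 and Pla2g4a held no site, as was the case at Ptgs2, and the other 2 did. Ptges, the synthase that acts after cyclooxygenase, held 4 sites, the highest at 10.6, 13.3 and 12.1-fold (mean 11.96 ± 1.35, n = 3). That site lay in intron 1 of an annotated transcript that starts farther upstream. It was before the only start of Ptges tested as a promoter (chr2:30903297, minus strand). Hpgd, the enzyme that breaks prostaglandins down, had a site 27.8 kb before its start at 7.82, 13.03 and 8.47-fold (mean 9.78 ± 2.84, n = 3), with no ERE match closer than 4 mismatches.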

How the data were processed

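ChIP-seq signal was analysed in 3 ERβ ChIP and 2 input libraries of mouse ovary. The authors aligned reads with STAR to GRCm38 (mm10), kept uniquely mapped reads and used HOMER, per the study's methods. Each deposited file is a track of 1 library, in which the authors scaled the coverage, given here as signal, to an equal library total. Values are means over segments with a median length of 269 bp (Input replicate 1) to 519 bp (Input replicate 2), so inputs differ in resolution. Read counts cannot be recovered from them. Groups came from the sample titles. The labels do not say whether the inputs came from separate animals, so p-values measure the spread between these libraries.

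Tracks of the autosomes and chromosome X were averaged in 10-bp bins with Python 3.11.15 (numpy 2.4.6). Sites were called in 200-bp windows as described above, with no filter on height. GENCODE vM21 gave genes, and RefSeq's GRCm38 assembly the sequence. limma 3.58.1 (lmFit, eBayes with a trend, R 4.3.3) compared ChIP with input on log2(signal + 0.5), over 1-kb windows with a mean signal of at least 0.1 and over promoters (per gene the start with the smallest p, multiplied by its number of starts). Both scripts were tested on simulated data. The 10 splits of 3 and 2 libraries cannot give an exact one-sided p below 0.1, so single sites were not tested.

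The genes, the second list and the rules were chosen with earlier results of these data known. All 9 genes and every site in their loci are named, and of the second list those with a site of at least 8-fold, at most 6. One result that this rule names is not reported here. The 2 windows just under the rule, the named ERE matches and the other genes named from the second list were chosen after their values were seen. Alternatives changed the threshold, input, window, flank, pseudocount, filter and batch.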

Additional observations from a re-analysis of the deposited data

How the results depend on the processing

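The count of sites in the loci was 5. It fell to 0 at over 8-fold, to 3 when all 3 ChIP libraries had to pass, to 1 in 500-bp windows and to 3 with 10 kb on each side of the genes, and rose to 8 with 100 kb. The count of genes with a site was 2, and it became 0 at over 8-fold and 1 in 500-bp windows or with 10 kb. Either input alone, a floor for the input at 0.5 of the genome mean, a threshold of 3-fold, an added requirement on height and local background, and assignment by the nearest protein-coding start (chosen after seeing the data) gave 5 to 7 sites and 2 genes. Leaving out 1 library gave 3 to 6 sites and 2 genes. The 2 windows higher in ChIP by limma became 1 with a pseudocount of 1 and 0 with no filter on low signal, and 0 to 2 when 1 library was left out. The cause was not tested. They stayed 2 with a pseudocount of 0.25, with the median difference set to 0 and with a term for the track-name batch (chosen after seeing the data). The number of promoters higher in ChIP among the 9 genes was 0 under every one of these limma alternatives.

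ChIP and input libraries share the numbers 1 and 2, but nothing says that a number marks a shared sample, and deviations of same-numbered libraries correlated at 0.0362 and -0.0111. With a replicate block, 2 windows in the loci were higher and 2 lower, against 2 and 0 without it, and 0 promoters were higher. No input carries the number 3, so ChIP replicate 3 adds nothing to the difference in that fit. The fit rests on the libraries numbered 1 and 2, with little left to measure their spread. Over all windows the block raised the number lower from 65 to 3217, and over all promoters from 6 to 972. Of 48 fold values at the 12 windows under other inputs or a wider window, 38 moved by less than 1 SD and 10 by more. Those 10 were at the sites, apart from the Tnfaip6 window in 500 bp. At most windows without a site the inputs lay near the floor, so another input could hardly change the fold. A move under 1 SD could still cross 4-fold, as at Cebpb site 1 (SD 1.94), which was 3.80 against Input replicate 1 alone. In 500-bp windows the mean folds were 3.16, 3.22 and 3.89 at the Egfr sites. At the Cebpb sites they were 3.12 and 3.93, so all 5 sites were below 4-fold there. Of the 5 sites, 5 held an ERE match with at most 2 mismatches, 4 with at most 1, and 5 within 400 bp. The tracks hold no read counts, and 1 input over the other reached up to 3.31-fold in the loci without a site.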
